A study of Mus musculus with 48 samples.

Results

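Poly(A) RNA was sequenced from the fat of male mice that either lacked or carried Cth, the gene of cystathionine gamma-lyase, which makes cysteine from cystathionine. The mice ate a cystine-free diet (CysF) or a control diet (CTRL) for 6 days, and the 48 libraries of the series formed 12 groups of 4 from brown fat (BAT), visceral white fat (labelled EFAT) and subcutaneous white fat (labelled SFAT). Described here is how the diet response of the knockout differed between its white depots, which rests on 16 of the 48 libraries, all of them Cth-/-. They were EFAT on CysF (libraries 16, 17, 18 and 20), EFAT on CTRL (libraries 12, 13, 14 and 15), and SFAT on CysF and on CTRL with the same library numbers. The labels give neither an age nor a strain, and do not describe how Cth was deleted. They also do not say that same-numbered libraries come from 1 mouse, so p-values measure only the spread between libraries. That spread was estimated for each gene from all 48 libraries in their 12 groups. For each gene the response in a depot was the log2 fold change of CysF over CTRL, and the depot difference was the EFAT response minus the SFAT response. A negative difference therefore means a lower response in EFAT. Of 18348 genes tested, 804 (4.38%) passed an adjusted p under 0.05 by the edgeR quasi-likelihood test for this difference.

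Cysteine is an amino acid that cells need for protein, for glutathione and for coenzyme A, the carrier of fatty acids in both their oxidation and their storage. Mice that lack cystathionine gamma-lyase cannot make it from methionine and depend on dietary cystine. White adipocytes store triglyceride. Subcutaneous white fat is known for brown-like adipocytes that burn fatty acids for heat in mitochondria, a change called browning, and visceral white fat is known to brown less readily.

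Cth had 0 to 6 reads in the 8 Cth-/- EFAT libraries and 0 to 4 reads in the 8 Cth-/- SFAT libraries, against 202 to 389 reads in Cth+/+ EFAT and 90 to 332 reads in Cth+/+ SFAT libraries. Total counts per library were 18.7 M to 36.1 M in Cth-/- EFAT and 22.2 M to 39.0 M in Cth-/- SFAT. Adipoq, the adipocyte hormone adiponectin, was at 1383 to 2221 CPM (reads relative to the scaled library total) in each of the 16 libraries. The 13 markers of mesothelium, the lining of the abdominal cavity, summed to 209 to 250 CPM in EFAT on CysF and 231 to 415 CPM in EFAT on CTRL, against 24.9 to 39.9 CPM in SFAT on CysF and 22.7 to 34.5 CPM in SFAT on CTRL. Some libraries stood apart. Mitochondrially encoded reads made up 31.3% of library 20 of SFAT on CysF, against 7.06 to 11.5% of the other SFAT libraries, and 14.7 and 14.4% of libraries 17 and 20 of EFAT on CysF, against 4.82 to 7.13% of the other EFAT libraries. The 20 skeletal muscle markers summed to 17.5 to 20.8 CPM in EFAT on CysF and 33.2 to 76.0 CPM in EFAT on CTRL, against 37.5 to 1650 CPM in SFAT on CysF and 43.4 to 628 CPM in SFAT on CTRL. In bulk tissue, fewer cells of a type and less RNA per cell cannot be told apart.

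Of the 804 genes, 614 (3.35% of those tested) had a lower response in EFAT and 190 (1.04%) a higher one. In a fit of the 16 libraries alone 139 passed, and the split was nearly even, with 75 lower and 64 higher. Among the 614, 312 fell in EFAT with no change past the test in SFAT, 201 rose in SFAT with none past it in EFAT, and 51 did both. Among the 190, 109 fell in SFAT with no change past the test in EFAT, 50 rose in EFAT with none past it in SFAT, and 8 rose in EFAT and fell in SFAT. For scale, 13.5% of the genes tested rose and 17.3% fell in EFAT, and 10.4% rose and 12.7% fell in SFAT. The count of 804 depended on single libraries. It was 209 without control library 14 of EFAT, 277 without control library 12, 490 without CysF library 18, 398 without CysF library 20 and 1740 without control library 15. Among the SFAT libraries it was 341 without control library 13, 405 without control library 15, 349 without CysF library 16 and 344 without CysF library 17. Of the 804 genes, 192 passed in each of the 16 fits that leave out 1 library, and none of the 804 changed sign in any of these fits. Of the 84 genes past the test that the rule for named genes or a later choice put into the text, 29 passed in each of these fits, while 53 no longer passed without EFAT control library 14 and 50 without control library 12. The libraries also fell into sets A and B, with under and at least 0.1 CPM of the pseudogene Gm43512, which the labels do not mention. EFAT on CysF held 1 library of set A and 3 of set B, EFAT on CTRL 3 and 1, SFAT on CysF 3 and 1, and SFAT on CTRL 2 and 2. Within set A (9 libraries) 42 genes passed, within set B (7 libraries) 3 passed, and with the set as a term 509 passed. In the set A fit, 29 of the 42 were higher and 13 lower in EFAT. Of the 804 genes, 2 had the other sign in set A and 35 in set B. Both subsets leave groups of 1 library, whose spread is taken to be that of the other groups.

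**Figure D1:**
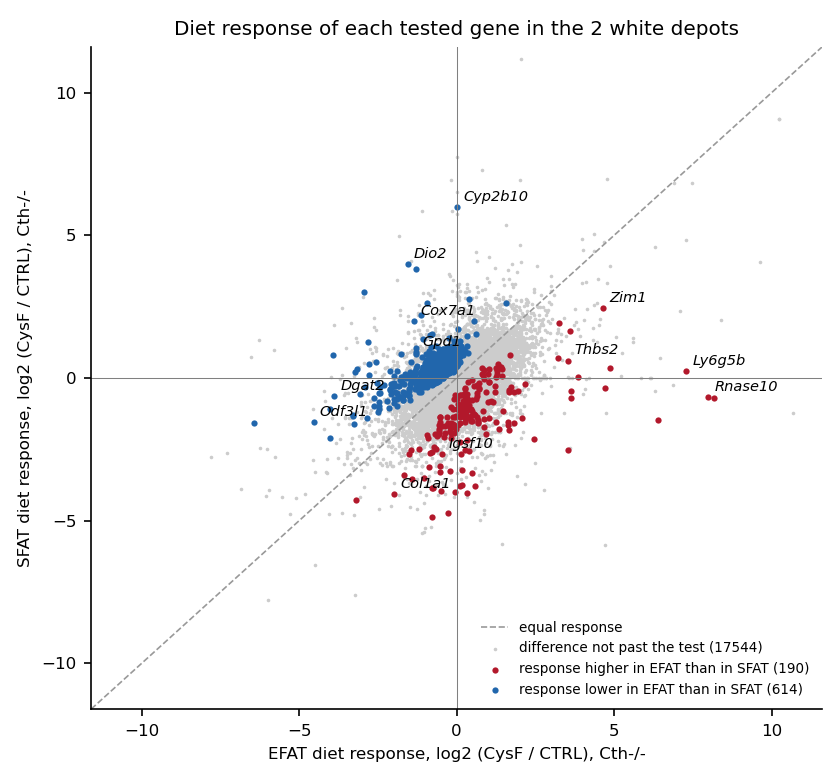
Diet response (log2 of CysF over CTRL) of each tested gene in Cth-/- EFAT (horizontal axis) and Cth-/- SFAT (vertical axis), 4 libraries per group. Blue points are the 614 genes with a lower response in EFAT and lie above the dashed line of equal response, and red points are the 190 genes with a higher response in EFAT and lie below it.

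The same contrast in Cth+/+ mice gave no gene past the test (0.0% of those tested) with edgeR, 1137 genes at an unadjusted p under 0.05, and 11 genes past an adjusted p of 0.05 with DESeq2. The lowest edgeR adjusted p there was 0.196. The difference between the genotypes was tested itself. It passed for 632 genes (3.44%), with 232 (1.26%) more positive and 400 (2.18%) more negative in Cth-/- mice. Of the 614 genes with a lower response in EFAT, 306 were among the 400, and of the 190 with a higher response, 103 were among the 232. These shares are a description, since both tests use the 16 Cth-/- white fat libraries. The 632 ranged over 198 to 1865 when 1 library was left out, lowest without EFAT control library 14 of Cth-/- and highest without SFAT CysF library 11 of Cth+/+.

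Nuclear genes of the respiratory chain, the mitochondrial complexes that oxidise fuel and make ATP, differed in 1 direction throughout. All 60 subunits tested had a negative difference and 45 passed the test, with a median of -1.02, against a median of 0.03 over all genes tested. In EFAT 10 of the 60 fell and none rose, with a median response of -0.33. In SFAT 46 rose and none fell, with a median of 0.71. By complex, the count past the test for the difference was 16 of 21 in complex I, 4 of 4 in complex II, 7 of 8 in complex III, 8 of 12 in complex IV and 9 of 14 in the ATP synthase, and the remaining one was cytochrome c. The mean level of the 60 genes in a library, as log2 (CPM + 0.5) centred over the 32 white fat libraries, was -0.21, -0.60, -0.55 and -0.63 in EFAT on CysF (libraries 16, 17, 18 and 20), against 0.01, -0.41, 0.22 and -0.60 in EFAT on CTRL (libraries 12 to 15). It was 0.88, 0.87, 0.33 and 0.48 in SFAT on CysF, against 0.00, -0.07, 0.03 and 0.01 in SFAT on CTRL. Diet groups overlapped in EFAT and did not overlap in SFAT, where libraries 16 and 17 were highest. In EFAT, control libraries 12 and 14 stood above 13 and 15. The 45 became 15 without EFAT control library 14, 22 without control library 12 and 29 without CysF library 18, and 25, 23 and 22 without SFAT control library 13, CysF library 16 and CysF library 17. Within library sets A and B none of the 60 passed, with medians of -0.94 and -0.49, and 31 passed with the set as a term. In a fit of the 16 libraries alone 4 passed, at a median of -1.04.

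**Figure D2:**
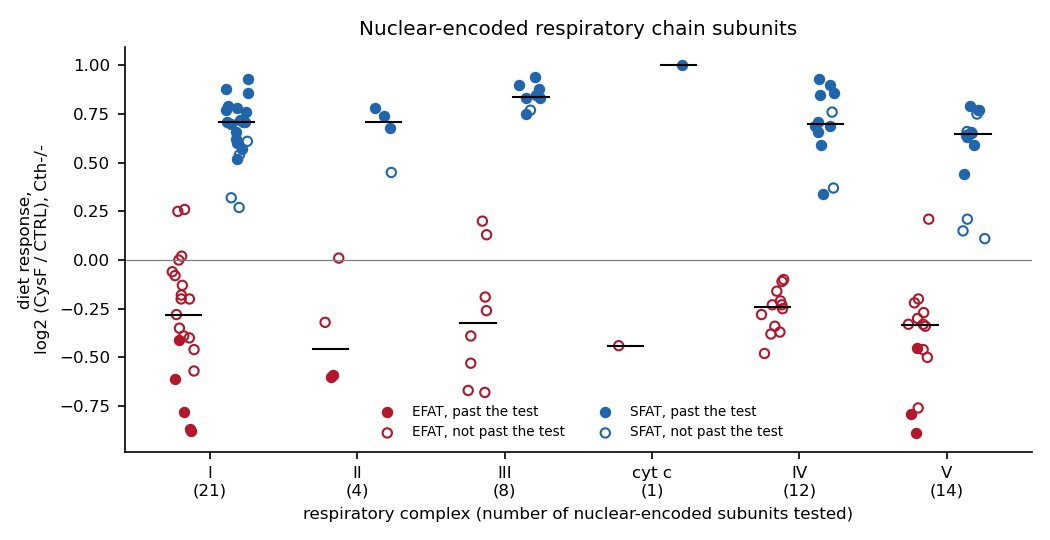
Diet response in Cth-/- mice (log2 of CysF over CTRL, vertical axis) of the 60 nuclear-encoded respiratory chain genes by complex, with EFAT in red left of SFAT in blue. Filled points passed the test in that depot (10 lower in EFAT, 46 higher in SFAT) and black lines are medians over the genes of a complex.

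Cycs, which encodes the electron carrier cytochrome c (chromosome 6, 50562563 to 50566538, minus strand, GRCm38), was at 55.0, 78.0, 50.5 and 77.0 CPM in EFAT on CysF, against 106, 57.4, 117 and 73.7 CPM in EFAT on CTRL. In SFAT it was at 230, 232, 136 and 343 CPM on CysF, against 128, 99.9, 133 and 109 CPM on CTRL. The diet groups overlapped in EFAT and were apart in SFAT, where all CysF libraries were higher. Its difference was -1.44 ± 0.31 (log2, SE; adjusted p = 0.0067), with a response of 1.00 ± 0.22 in SFAT (adjusted p = 0.00078) and -0.44 ± 0.22 in EFAT (adjusted p = 0.12). Reads of a processed copy of such a gene may be counted with it, so its level is uncertain. Sdhd, a membrane subunit of succinate dehydrogenase, was at 65.2, 42.3, 50.3 and 42.4 CPM in EFAT on CysF and 88.7, 62.4, 99.6 and 51.1 CPM in EFAT on CTRL, against 173, 174, 106 and 109 CPM in SFAT on CysF and 83.3, 87.8, 78.9 and 86.4 CPM in SFAT on CTRL. It fell in EFAT (-0.59 ± 0.23) and rose in SFAT (0.74 ± 0.23), a difference of -1.33 ± 0.32 (adjusted p = 0.013). Cox6a1, a subunit of cytochrome c oxidase, had a difference of -0.84 ± 0.18 (adjusted p = 0.0067). Among the largest differences of the list were those of Atp5k (-1.54 ± 0.42), Uqcrq (-1.52 ± 0.42), Uqcrfs1 (-1.47 ± 0.43) and Cyc1 (-1.44 ± 0.42), with adjusted p-values of 0.030, 0.028, 0.043 and 0.040. Atp5k and Uqcrq each passed in 7 of the 16 fits that leave out 1 library, and Uqcrfs1 and Cyc1 in 5. Cycs and Cox6a1 passed in all 16 of these fits and Sdhd in 15. Uqcrb, a complex III subunit, did not pass (-0.63 ± 0.34, adjusted p = 0.29). Cycs, Sdhd and Cox6a1 were chosen for description after their values were seen, for their promoters.

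The promoters of these 3 genes and of Dio2, a thermogenic gene, are printed because they hold a sequence named for a factor that is known to act on mitochondrial or thermogenic genes. Each runs from 250 bases before to 50 after the start site in RefSeq (GRCm38.p6), 5′ to 3′ on the gene's strand, with motif matches in capitals. The motifs were searched on both strands as the NRF1 core GCGCATGCG (NRF1 is nuclear respiratory factor 1), the cAMP response element TGACGTCA, which reads the same on both strands, and the element of oestrogen-related receptors, TCAAGGTCA. In Cox6a1 the 2 NRF1 matches, one per strand, overlap.
Sdhd (chr9:50603800-50604099, minus strand): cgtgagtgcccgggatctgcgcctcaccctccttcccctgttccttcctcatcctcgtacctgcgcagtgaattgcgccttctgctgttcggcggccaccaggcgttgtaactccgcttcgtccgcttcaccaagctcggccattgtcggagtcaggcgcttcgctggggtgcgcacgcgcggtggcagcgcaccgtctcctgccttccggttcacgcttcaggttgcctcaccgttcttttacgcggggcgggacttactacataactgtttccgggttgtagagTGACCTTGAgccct
Cycs (chr6:50566520-50566819, minus strand): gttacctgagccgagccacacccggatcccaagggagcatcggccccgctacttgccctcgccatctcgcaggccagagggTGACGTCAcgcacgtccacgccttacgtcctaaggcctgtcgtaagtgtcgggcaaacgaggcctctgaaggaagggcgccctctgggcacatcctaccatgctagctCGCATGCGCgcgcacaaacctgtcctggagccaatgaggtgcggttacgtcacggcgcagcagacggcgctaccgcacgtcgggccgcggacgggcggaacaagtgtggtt
Cox6a1 (chr5:115348909-115349208, minus strand): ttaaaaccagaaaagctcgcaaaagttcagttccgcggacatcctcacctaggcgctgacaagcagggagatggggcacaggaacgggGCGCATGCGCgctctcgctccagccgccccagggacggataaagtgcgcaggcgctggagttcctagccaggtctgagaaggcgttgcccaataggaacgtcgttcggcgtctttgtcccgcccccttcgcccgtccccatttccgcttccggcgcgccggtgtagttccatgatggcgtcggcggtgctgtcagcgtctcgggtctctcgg
Dio2 (chr12:90738989-90739288, minus strand): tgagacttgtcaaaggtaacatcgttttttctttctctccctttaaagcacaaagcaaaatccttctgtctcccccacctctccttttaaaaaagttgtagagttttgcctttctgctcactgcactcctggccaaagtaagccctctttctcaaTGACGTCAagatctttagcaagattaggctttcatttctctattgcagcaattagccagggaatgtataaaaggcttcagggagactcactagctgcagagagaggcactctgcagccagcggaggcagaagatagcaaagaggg
Promoters were matched for 456 of the 614 genes with a lower response in EFAT, 136 of the 190 with a higher one and 12316 of the genes tested. The NRF1 core was in 7.46% of the 456, 0.735% of the 136 and 3.54% of the 12316, and in 10.6% of the 47 matched promoters of the respiratory chain list. The cAMP response element was in 5.92% of the 456, 1.47% of the 136 and 3.26% of the 12316. The oestrogen-related receptor element was in 1 of the 456 (0.219%), none of the 136 (0.0%) and 0.349% of the 12316, and Sdhd held the 1. Over all 27025 promoters of the reference the shares were 1.95% for the NRF1 core, 2.03% for the cAMP response element and 0.466% for the oestrogen-related receptor element. A match is a description of letters in this window and does not show that a factor binds.

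Fatty acid oxidation genes leaned the same way. Of 31 oxidation genes tested, 11 had a lower response in EFAT and none a higher one, with a median difference of -0.67. In EFAT 4 rose and 7 fell, and in SFAT 21 rose and 1 fell. Acadm, the medium-chain acyl-CoA dehydrogenase (chromosome 3, 153922357 to 153944632, minus strand), was at 197, 196, 200.1 and 185 CPM in EFAT on CysF, against 285, 212, 330 and 185 CPM in EFAT on CTRL, and at 605, 640, 428 and 588 CPM in SFAT on CysF, against 357, 323, 361 and 306 CPM in SFAT on CTRL. The SFAT groups did not overlap and the EFAT groups did. Its difference was -1.13 ± 0.22 (adjusted p = 0.0036). Acaa2, the mitochondrial thiolase that ends the oxidation cycle, fell in EFAT (-0.70 ± 0.24) and rose in SFAT (0.72 ± 0.23), with a difference of -1.42 ± 0.33 (adjusted p = 0.012). Acads and Acadvl, the short-chain and very-long-chain dehydrogenases, had differences of -1.20 ± 0.35 and -1.16 ± 0.30 (adjusted p = 0.043 and 0.021). For Acads the change past the test was the fall in EFAT (-0.86 ± 0.25), and for Acadvl the rise in SFAT (1.05 ± 0.21). Acadm and Acaa2 passed in all 16 fits that leave out 1 library, Acadvl in 11 and Acads in 5. The 11 became 4 to 7 without EFAT control libraries 12 or 14, EFAT CysF library 20, SFAT control library 13, or SFAT CysF libraries 16 or 17.

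Triglyceride assembly, which joins fatty acids to a glycerol backbone, had 8 of 18 genes with a lower response in EFAT and none with a higher one, and a median difference of -0.94. In EFAT 8 of the 18 fell and none rose. In SFAT 8 rose and 3 fell. Dgat2, which makes the last ester bond of triglyceride (chromosome 7, 99153658 to 99182719, minus strand), was at 206, 161, 117 and 110.2 CPM in EFAT on CysF, against 3558, 1209, 3297 and 711 CPM in EFAT on CTRL. In SFAT it was at 1031, 1146, 570.2 and 547 CPM on CysF, against 1689, 861, 1618 and 906 CPM on CTRL. Every EFAT library on CysF was below every other library of both depots, while the SFAT groups overlapped. In EFAT it fell by 3.89 ± 0.41 on the log2 scale (adjusted p = 3.3e-09), the SFAT response was -0.62 ± 0.36 (adjusted p = 0.23), and the difference was -3.26 ± 0.53 (adjusted p = 0.0012). Agpat2, an acyltransferase of the middle step, fell by 2.32 ± 0.32 in EFAT and had a response of -0.24 ± 0.30 in SFAT, with a difference of -2.08 ± 0.44 (adjusted p = 0.0058). Within library sets A and B 1 and 0 passed, with medians of -0.86 and -0.19, and 5 passed with the set as a term. The 8 became 4 or 5 without EFAT control libraries 12 or 14, EFAT CysF library 20, SFAT control library 13, or SFAT CysF libraries 16 or 17.

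Gpd1, which makes the glycerol backbone from a glycolytic intermediate (chromosome 15, 99717515 to 99725005, plus strand), moved in opposite directions. It was at 407, 452, 419 and 452 CPM in EFAT on CysF, against 1627, 483, 1657 and 483 CPM in EFAT on CTRL, and at 3267, 3165, 1252 and 3677 CPM in SFAT on CysF, against 1655, 1340.0, 1656 and 1426 CPM in SFAT on CTRL. In EFAT the groups did not overlap, but control libraries 13 and 15 were close to the CysF libraries. In SFAT library 18 on CysF lay below all 4 controls and the other CysF libraries above them. It fell by 1.30 ± 0.30 in EFAT (adjusted p = 0.0011) and rose by 0.90 ± 0.30 in SFAT (adjusted p = 0.023). The difference was -2.20 ± 0.42 (adjusted p = 0.0027). Agpat9, the acyltransferase of the first step, was the other assembly gene named for opposite movement, with a response of -0.87 ± 0.26 in EFAT and 0.93 ± 0.26 in SFAT. Idh3a, a subunit of the citric acid cycle enzyme isocitrate dehydrogenase, was at 120, 103, 103 and 79.9 CPM in EFAT on CysF and 246, 134, 256 and 132 CPM in EFAT on CTRL, against 574, 529, 276 and 387 CPM in SFAT on CysF and 271, 232, 258 and 243 CPM in SFAT on CTRL. Neither depot's groups overlapped, and its difference was -1.74 ± 0.32 (adjusted p = 0.0022). Fam73b and Ciapin1, an iron-sulfur protein assembly factor, also fell in EFAT and rose in SFAT, with differences of -1.61 ± 0.39 and -1.47 ± 0.35 (adjusted p = 0.014 and 0.013).

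**Figure D3:**
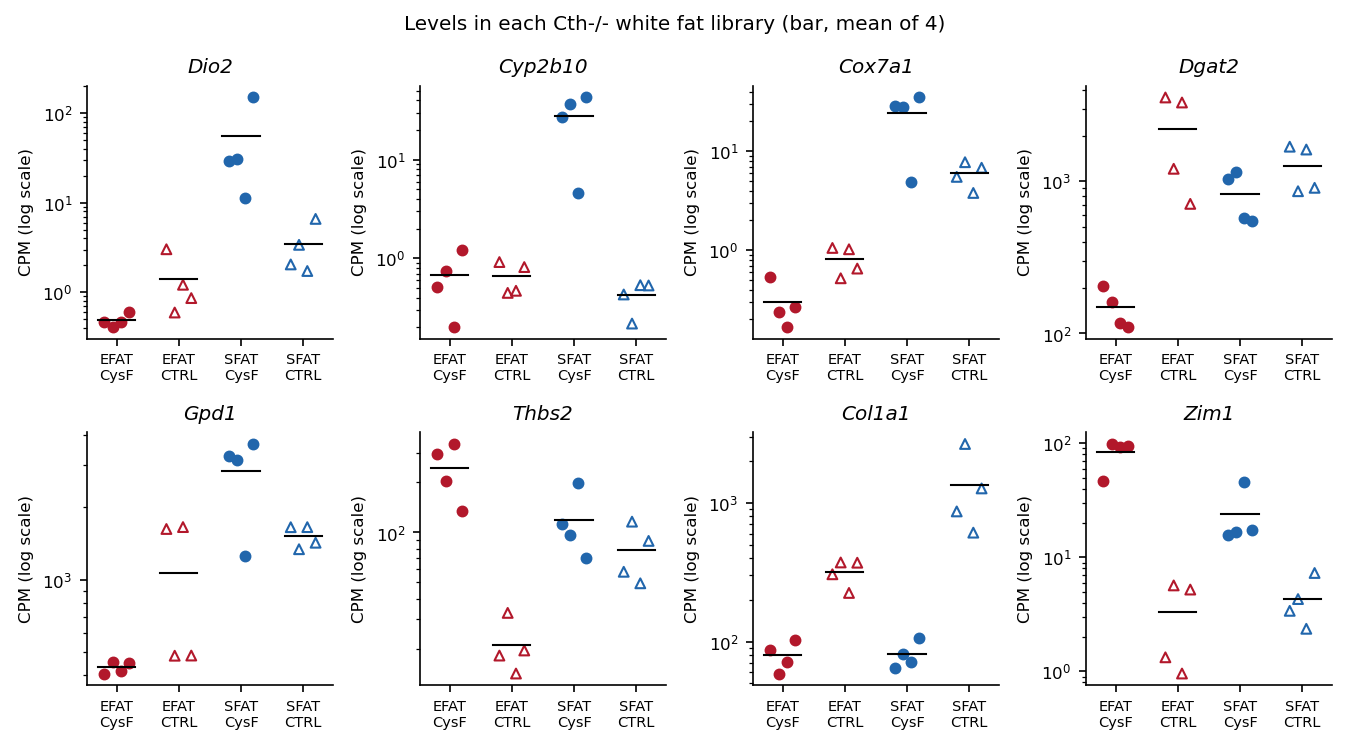
Level of 8 genes in each Cth-/- white fat library (CPM, log scale), for EFAT on CysF, EFAT on CTRL, SFAT on CysF and SFAT on CTRL. Filled circles are CysF libraries, open triangles CTRL libraries and bars the mean of 4. Dgat2 is lowest in the 4 EFAT libraries on CysF (110.2 to 206 CPM), and Dio2 and Cyp2b10 are highest in SFAT on CysF.

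Fatty acid synthesis had 5 of 25 genes with a lower response in EFAT and none with a higher one, with 16 falling and 2 rising in EFAT, and 2 falling and 2 rising in SFAT. Fasn, fatty acid synthase, was at 4223, 2594, 621 and 1452 CPM in EFAT on CysF, against 17330.0, 3243, 16300.0 and 2021 CPM in EFAT on CTRL. In SFAT it was at 25610.0, 21670.0, 7406 and 13630.0 CPM on CysF, against 15280.0, 8919, 20300.0 and 12910.0 CPM on CTRL. The groups overlapped in both depots, and EFAT control libraries 12 and 14 were several times above 13 and 15. Its difference was -2.38 ± 0.65 (adjusted p = 0.028), and passed in 8 of the 16 fits that leave out 1 library. The call ended without EFAT control library 12 or 14 or EFAT CysF library 18 or 20. It also ended without SFAT control library 13 or 15 or SFAT CysF library 16 or 17. Acly, which supplies the acetyl-CoA for synthesis, passed narrowly (-2.62 ± 0.79, adjusted p = 0.049) and Acaca, which makes malonyl-CoA, missed narrowly (-1.74 ± 0.53, adjusted p = 0.051). Thrsp, a regulator of lipogenesis, had a difference of -2.06 ± 0.58 (adjusted p = 0.031). Pnpla3, a lipid droplet acyl hydrolase that lipogenic conditions raise, fell in both depots, by 3.30 ± 0.35 in EFAT and 1.33 ± 0.33 in SFAT, with a difference of -1.96 ± 0.46 (adjusted p = 0.012).

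Of 22 lipolysis and droplet genes, 6 had a lower response in EFAT and none a higher one, and all 22 differences were negative (median -0.70). Plin1, the perilipin that coats the adipocyte droplet, was at 768, 776, 716 and 680.0 CPM in EFAT on CysF and 1716, 1198, 2044 and 1161 CPM in EFAT on CTRL, against 1209, 1179, 1211 and 1111 CPM in SFAT on CysF and 1559, 1058, 1608 and 1208 CPM in SFAT on CTRL. The EFAT groups were apart, the SFAT groups overlapped, and the difference was -0.85 ± 0.20 (adjusted p = 0.012). G0s2, an inhibitor of adipose triglyceride lipase, fell in EFAT (-1.40 ± 0.26) with a response of -0.10 ± 0.25 in SFAT, a difference of -1.30 ± 0.36 (adjusted p = 0.031). Adcy3, an adenylyl cyclase that makes the lipolytic signal cAMP, rose in SFAT (1.03 ± 0.19) and had a response of 0.03 ± 0.19 in EFAT (difference -1.0 ± 0.27, adjusted p = 0.026). Of 23 adipocyte identity genes, 6 had a lower response in EFAT, with 14 falling and 1 rising in EFAT, and 5 falling and 5 rising in SFAT. Named by the rule were Retn, the hormone resistin (-1.48 ± 0.42), Slc2a4, the insulin-responsive glucose transporter (-1.34 ± 0.34), Cebpa, a master regulator of adipocytes (-1.16 ± 0.33), and Lpl, lipoprotein lipase (-1.02 ± 0.30). Their adjusted p-values were 0.035, 0.019, 0.038 and 0.044. Lep, the hormone leptin, fell in both depots (-2.95 ± 0.58 in EFAT, -2.01 ± 0.56 in SFAT), and its difference did not pass (-0.94 ± 0.76, adjusted p = 0.49). Adipoq changed past the test in neither depot (difference -0.34 ± 0.22, adjusted p = 0.35). When 1 library was left out, 1 to 9 of the lipolysis genes, 1 to 10 of the synthesis genes and 0 to 9 of the adipocyte genes passed, with the lowest counts without EFAT control library 14. For the synthesis genes 1 also passed without EFAT control library 12, CysF library 18 or 20, or, in SFAT, control library 13 or 15 or CysF library 16 or 17, and for the adipocyte genes 1 passed without EFAT control library 12, EFAT CysF library 20, SFAT control library 13, or SFAT CysF library 16 or 17.

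**Figure D4:**
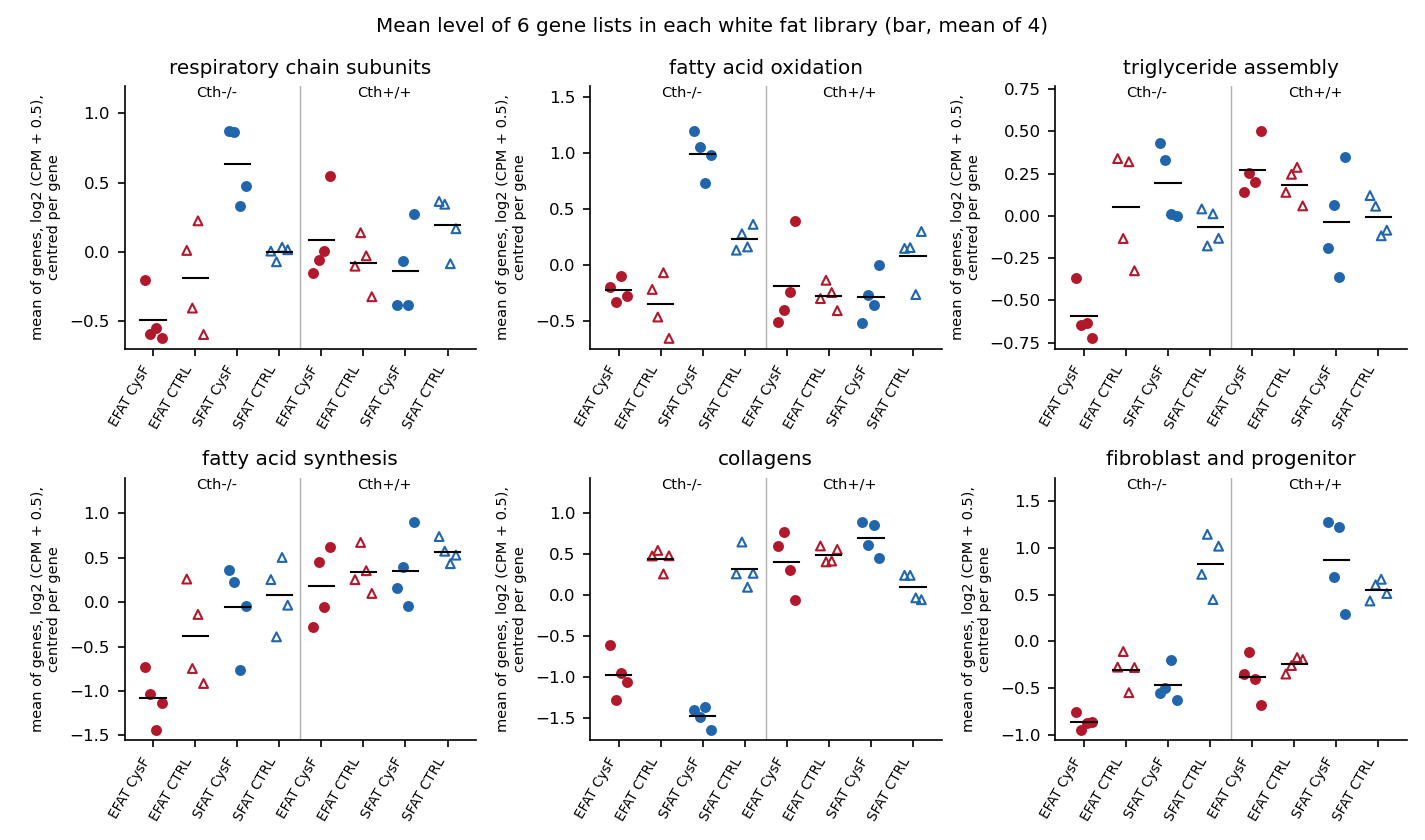
Mean level of 6 gene lists (log2 of CPM + 0.5, centred for each gene over the 32 white fat libraries) in each library, Cth-/- left of Cth+/+, EFAT in red and SFAT in blue, CysF as filled circles and CTRL as open triangles, with bars for the mean of 4 libraries. Respiratory chain genes lie at 0.33 to 0.88 in the 4 libraries of Cth-/- SFAT on CysF. Some Cth+/+ libraries reach this range, namely EFAT 11 on CysF (0.55) and SFAT 1 and 2 on CTRL (0.36 and 0.34). In the triglyceride assembly panel the Cth-/- EFAT controls lie at 0.34, -0.13, 0.32 and -0.33.

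Most thermogenic genes had no depot difference past the test. Of 26 tested, 13 rose and 1 fell in SFAT, 4 rose and 3 fell in EFAT, and 3 had a lower response in EFAT. Dio2, which activates thyroid hormone in brown fat (chromosome 12, 90724552 to 90738438, minus strand), was at 0.465, 0.409, 0.468 and 0.597 CPM in EFAT on CysF, against 3.02, 0.594, 1.21 and 0.861 CPM in EFAT on CTRL. In SFAT it was at 29.1, 31.1, 11.3 and 150 CPM on CysF, against 2.05, 3.38, 1.73 and 6.59 CPM on CTRL. The SFAT groups did not overlap, and library 20 on CysF was far above the rest. It rose by 4.00 ± 0.83 in SFAT (adjusted p = 0.00039), the EFAT response was -1.55 ± 1.05 (adjusted p = 0.26), and the difference was -5.55 ± 1.29 (adjusted p = 0.011), a call that ended without EFAT control library 12. Cox7a1, the cytochrome oxidase subunit of muscle and brown fat, was at 0.538, 0.239, 0.167 and 0.265 CPM in EFAT on CysF and 1.05, 0.520, 1.02 and 0.652 CPM in EFAT on CTRL, against 28.6, 27.9, 4.89 and 34.9 CPM in SFAT on CysF and 5.50, 7.74, 3.78 and 6.80 CPM in SFAT on CTRL. In SFAT library 18 on CysF lay among the controls and the other 3 CysF libraries above them, and the EFAT groups overlapped narrowly. The difference was -3.36 ± 0.87 (adjusted p = 0.022), a call that ended without EFAT control libraries 12 or 14 or EFAT CysF libraries 18 or 20. Esrra, a nuclear receptor of mitochondrial genes, had a difference of -1.36 ± 0.37 (adjusted p = 0.030). Its call held in 8 of the 16 fits that leave out 1 library, and ended with the library set as a term. The muscle markers given above were also highest in SFAT on CysF, in library 20, and their part in these results was not tested beyond a fit with their score as a covariate, in which 647 genes passed for the depot difference.

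Ucp1, the protein that lets brown mitochondria burn fuel for heat (chromosome 8, 83290352 to 83298452, plus strand), was at 0.171, 1.09, 0.0669 and 0.166 CPM in EFAT on CysF, against 0.0229, 0.173, 0.0213 and 2.84 CPM in EFAT on CTRL. In SFAT it was at 1087, 719, 110.2 and 666 CPM on CysF, against 50.7, 139, 29.9 and 107 CPM on CTRL. In SFAT 3 of the CysF libraries were above all 4 controls, and library 18 lay within their range. The SFAT response was 2.98 ± 1.20 (adjusted p = 0.068), and the difference of -4.05 ± 2.02 did not pass (adjusted p = 0.24). Cidea, a lipid droplet protein of brown fat, was at 0.807 to 2.14 CPM in EFAT on CysF and 0.801 to 1.77 CPM in EFAT on CTRL, against 80.8 to 196 CPM in SFAT on CysF and 41.8 to 89.2 CPM in SFAT on CTRL, and its difference did not pass (-1.01 ± 0.91, adjusted p = 0.54). Ppargc1a, a coactivator of mitochondrial genes, rose in both depots, by 1.51 ± 0.42 in EFAT (adjusted p = 0.0056) and 1.34 ± 0.41 in SFAT (adjusted p = 0.016), with a difference of 0.18 ± 0.58 (adjusted p = 0.90). The difference between genotypes passed for Ucp1 (-14.81 ± 3.06, adjusted p = 0.010) and Cidea (-5.43 ± 1.27, adjusted p = 0.015), while EFAT library 11 of Cth+/+ on CysF held 137 CPM of Ucp1 and 42.8 CPM of Cidea against at most 0.0344 and 1.83 CPM in the other 3 of its group. The genotype differences of Ucp1 and Cidea without that library are not given here. None of the 13 mitochondrially encoded genes passed for the difference (median -0.44). In EFAT none rose, and in SFAT 4 rose.

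Cyp2b10, a cytochrome P450 induced by the xenobiotic receptor CAR (chromosome 7, 25897620 to 25926624, plus strand), had the lowest adjusted p of all genes tested. It was at 0.514, 0.750, 0.201 and 1.23 CPM in EFAT on CysF, against 0.916, 0.446, 0.468 and 0.815 CPM in EFAT on CTRL, and at 27.4, 36.4, 4.56 and 42.8 CPM in SFAT on CysF, against 0.429, 0.218, 0.533 and 0.530 CPM in SFAT on CTRL. All 4 SFAT libraries on CysF were above all others, library 18 least, and the EFAT groups overlapped. The SFAT response was 6.00 ± 0.55, the EFAT response 0.01 ± 0.59 and the difference -5.99 ± 0.80 (adjusted p = 7.3e-05). In BAT of Cth-/- mice it rose by 6.26 ± 0.53. The other 6 of the 10 genes with the most negative differences, among those past the test with a mean of at least 5 CPM, fell in EFAT and had an SFAT response of -1.56 to 0.49, past the test only for Odf3l1. They were Ppp1r3b, a glycogen-targeting phosphatase subunit (-3.49 ± 0.99), Fam83a (-3.45 ± 0.58), Clstn3, whose locus also makes an adipocyte droplet protein (-3.27 ± 0.56), Odf3l1 (-2.99 ± 0.70), Wfdc21 (-2.94 ± 0.67) and Gys2, the glycogen synthase of liver and fat (-2.89 ± 0.67). Their adjusted p-values were 0.0012 to 0.035. Ppp1r3b passed in 8 of the 16 fits that leave out 1 library, Gys2 in 15 and the others in all 16. In each of these 6, EFAT control libraries 12 and 14 were above 13 and 15.

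Matrix and stromal genes were among those with a higher response in EFAT, with falls in both depots and lower medians in SFAT. Of 24 collagen genes, 17 fell and 1 rose in EFAT with a median response of -1.40, and 19 fell and none rose in SFAT with a median of -2.05. Col1a1, the main chain of type I collagen (chromosome 11, 94936224 to 94953042, plus strand), was at 87.3, 58.7, 70.8 and 102 CPM in EFAT on CysF, against 306, 372, 224 and 370.3 CPM in EFAT on CTRL, and at 64.3, 81.9, 71.4 and 105 CPM in SFAT on CysF, against 868, 2662, 610.1 and 1272 CPM in SFAT on CTRL. The levels on CysF overlapped between the depots, and the SFAT controls were all above the EFAT controls. It fell by 1.99 ± 0.37 in EFAT and by 4.07 ± 0.40 in SFAT, with a difference of 2.07 ± 0.51 (adjusted p = 0.015) that ended without EFAT control library 14 or SFAT control library 13. Col1a2 and Col3a1, chains of type I and type III collagen, had differences of 1.73 ± 0.45 and 1.09 ± 0.33 (adjusted p = 0.022 and 0.049). Col28a1 was the fourth of the 4 collagens past the test, and rose in EFAT (1.37 ± 0.21), with a difference of 0.97 ± 0.29 (adjusted p = 0.046). The 4 became 0 to 2 without EFAT control libraries 12 or 14, EFAT CysF libraries 18 or 20, SFAT control libraries 13 or 15, or SFAT CysF libraries 16 or 17.

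Of 46 genes of matrix glycoproteins and their processing, 5 had a higher response in EFAT and none a lower one. With 1 library left out the 5 became 2 to 5, lowest without EFAT control library 14 or SFAT control library 13, and 3 without EFAT control library 12, EFAT CysF library 20, SFAT control library 15, or SFAT CysF libraries 16 or 17. Thbs2, the matrix protein thrombospondin 2 (chromosome 17, 14665500 to 14694235, minus strand), was at 296, 205, 341 and 136 CPM in EFAT on CysF, against 18.2, 32.8, 14.2 and 19.5 CPM in EFAT on CTRL, and at 113, 96.0, 198 and 70.0 CPM in SFAT on CysF, against 58.0, 116, 49.4 and 89.0 CPM in SFAT on CTRL. The EFAT groups were far apart and the SFAT groups overlapped. It rose by 3.53 ± 0.38 in EFAT (adjusted p = 4.0e-09), the SFAT response was 0.61 ± 0.34 (adjusted p = 0.21), and the difference was 2.92 ± 0.49 (adjusted p = 0.0012). Dcn, the small proteoglycan decorin, also rose in EFAT (0.71 ± 0.20), with a difference of 1.09 ± 0.29 (adjusted p = 0.024). Lum, lumican, fell in both depots, by 1.19 ± 0.21 in EFAT and 2.49 ± 0.22 in SFAT (difference 1.30 ± 0.30, adjusted p = 0.011). Mmp3, a matrix protease, fell in SFAT (-1.33 ± 0.31) and was at most 1.05 CPM in the EFAT libraries, with a difference of 1.78 ± 0.52 (adjusted p = 0.042). Of 21 fibroblast and progenitor genes, 12 fell in EFAT and 19 in SFAT, none rose in either, and 2 had a higher response in EFAT. Thy1, a surface marker of stromal cells, was at 8.88, 15.8, 9.37 and 15.0 CPM in EFAT on CysF and 14.2, 15.9, 10.5 and 14.7 CPM in EFAT on CTRL, against 9.72, 7.55, 8.54 and 13.1 CPM in SFAT on CysF and 39.6, 54.1, 30.3 and 41.5 CPM in SFAT on CTRL. Only the SFAT controls stood apart, and the difference was 1.92 ± 0.42 (adjusted p = 0.0076). Dpp4, a marker of early progenitors, was the other one (1.42 ± 0.43, adjusted p = 0.047). The 2 became 1 to 4 with 1 library left out. Thbs2, Lum and Thy1 passed in each of the 16 such fits, while Dcn passed in 9, Dpp4 in 6 and Mmp3 in 4.

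**Figure D5:**
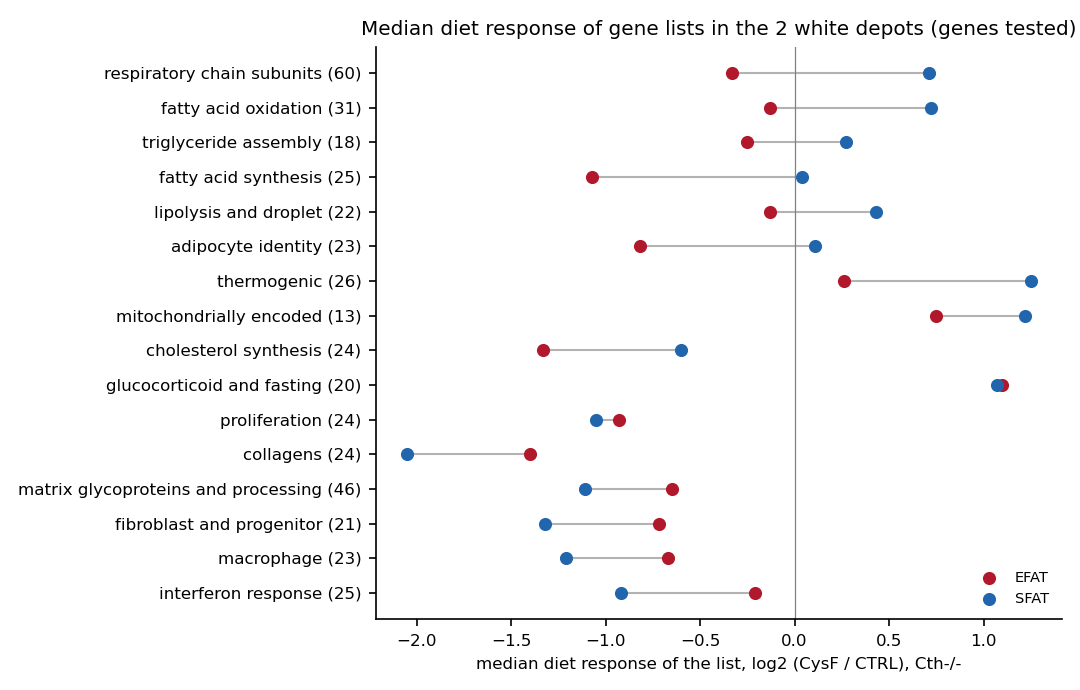
Median diet response in Cth-/- mice (log2 of CysF over CTRL) of 16 gene lists, EFAT in red and SFAT in blue, with the number of genes tested in brackets. The median is lower in EFAT than in SFAT for the metabolic lists at the top, such as respiratory chain subunits (-0.33 against 0.71), nearly equal for glucocorticoid and fasting genes (1.10 against 1.07), and higher in EFAT for the stromal lists at the bottom, such as collagens (-1.40 against -2.05).

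Some of the largest positive differences past the test, at a mean of at least 5 CPM, were of single genes. Zim1, an imprinted zinc finger gene (chromosome 7, 6671269 to 6696450, minus strand), was at 47.1, 98.5, 93.1 and 93.6 CPM in EFAT on CysF, against 1.33, 5.67, 0.957 and 5.21 CPM in EFAT on CTRL, and at 15.8, 16.7, 45.4 and 17.3 CPM in SFAT on CysF, against 3.39, 4.30, 2.36 and 7.28 CPM in SFAT on CTRL. It rose in both depots, by 4.66 ± 0.49 in EFAT and 2.46 ± 0.44 in SFAT, and its difference of 2.20 ± 0.61 (adjusted p = 0.030) passed in 7 of the 16 fits that leave out 1 library. Il33, an alarmin made by stromal cells, was at 13.6, 15.2, 10.2 and 17.0 CPM in EFAT on CysF and 6.36, 11.1, 6.55 and 12.1 CPM in EFAT on CTRL, against 3.68, 3.23, 4.74 and 6.75 CPM in SFAT on CysF and 10.4, 16.0, 8.53 and 12.3 CPM in SFAT on CTRL. All 4 SFAT libraries on CysF were below all SFAT controls, and the EFAT groups overlapped. It fell in SFAT (-1.37 ± 0.28), and its difference was 2.00 ± 0.39 (adjusted p = 0.0028). Igsf10 fell in SFAT (-2.68 ± 0.31), with a difference of 2.22 ± 0.42, and Omd, the proteoglycan osteomodulin, rose in EFAT (1.73 ± 0.33), with a difference of 2.03 ± 0.45 (adjusted p = 0.0026 and 0.0083). BC034090 had a difference of 1.95 ± 0.50 (adjusted p = 0.020). Named for opposite movement were Sbsn (0.99 ± 0.26 in EFAT, -0.85 ± 0.27 in SFAT), Tmeff2 (0.61 ± 0.24 in EFAT, -0.75 ± 0.23 in SFAT) and Ms4a4d (0.65 ± 0.20 in EFAT, -0.53 ± 0.20 in SFAT), with differences of 1.84 ± 0.37, 1.36 ± 0.33 and 1.18 ± 0.28 (adjusted p = 0.0041, 0.014 and 0.012).

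The positive differences of Rnase10 and Ly6g5b rested on libraries 16 and 20 of EFAT on CysF. Rnase10, a ribonuclease family gene expressed in the epididymis, was at 47.9, 0.136, 0.134 and 184 CPM in EFAT on CysF, against 0.0916, 0.396, 0.340 and 0.0698 CPM in EFAT on CTRL, 0.386, 0.305, 0.304 and 0.108 CPM in SFAT on CysF and 0.368, 0.749, 0.356 and 0.369 CPM in SFAT on CTRL. Its difference was 8.66 ± 1.49 (adjusted p = 0.0014), and -0.02 (adjusted p = 1.0) with EFAT libraries 16 and 20 left out. Ly6g5b was at 19.3, 0.239, 0.301 and 82.8 CPM in EFAT on CysF and at 0 to 0.316 CPM in every other library. Adam7, a gene of the epididymal epithelium, was at 87.7 and 316 CPM in the same 2 libraries, at most 0.273 CPM in the other 2 of the group and at most 3.84 CPM in EFAT on CTRL, and had 0 reads in all 8 SFAT libraries. The 17 epididymis and epithelium markers summed to 90.6 to 902 CPM in EFAT on CysF and 7.96 to 154 CPM in EFAT on CTRL, against 1.00 to 39.4 CPM in SFAT on CysF and 1.67 to 11.9 CPM in SFAT on CTRL. Of the 17, 6 (Crisp1, Adam7, Lcn5, Lcn8, Spink8 and Defb20) were at 0 in both SFAT groups. The depot difference passed for 377 genes without those 2 libraries.

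Of the 14 listed markers of B cells and lymph nodes, Cd37 stood under 2 identifiers, which gave 15 entries. Of these, 14 had fallen in SFAT and 1 in EFAT, and for the difference 3 passed as higher and 1 as lower in EFAT. Cd79a, part of the B cell receptor, was at 0.930, 1.57, 1.27 and 1.16 CPM in EFAT on CysF and 1.08, 1.81, 1.02 and 2.07 CPM in EFAT on CTRL, against 0.105, 0.0609, 0.355 and 0.162 CPM in SFAT on CysF and 0.286, 1.06, 17.0 and 0.876 CPM in SFAT on CTRL. Control library 14 of SFAT was far above the others, and the difference was 4.45 ± 1.28 (adjusted p = 0.038). Pax5, the B cell identity factor (3.89 ± 1.12, adjusted p = 0.039), and Ighd, the IgD heavy chain (3.07 ± 0.80, adjusted p = 0.023), were highest in the same library. Without it their differences were 1.76, 1.61 and 1.28 (adjusted p = 0.34, 0.32 and 0.20). Cd79a and Pax5 passed in 8 and Ighd in 11 of the 16 fits that leave out 1 library. All 3 also lost their calls without EFAT control libraries 12 or 14 or SFAT CysF libraries 16 or 17. Ighm, the IgM heavy chain, went the other way. It was at 27.3, 32.4, 25.9 and 26.4 CPM in EFAT on CysF and 729, 227, 710.2 and 146 CPM in EFAT on CTRL, against 85.4, 66.3, 30.6 and 49.2 CPM in SFAT on CysF and 327, 151, 405 and 119 CPM in SFAT on CTRL, and fell in both depots (difference -1.90 ± 0.56, adjusted p = 0.042). Ighm passed in 7 of the 16 fits that leave out 1 library, and its call ended without EFAT control library 12 or 14, among others. The 14 markers of T and NK cells gave none past the test for the difference. Klrb1c, an NK cell receptor, rose in EFAT (2.64 ± 0.66, adjusted p = 0.0023) with a difference of 2.70 ± 0.89 (adjusted p = 0.071). Of 23 macrophage entries (22 markers, with Itgam under 2 identifiers) 8 fell and 2 rose in EFAT, 13 fell and 1 rose in SFAT, and 1, the chemokine receptor gene Cx3cr1, passed for the difference (1.84 ± 0.54, adjusted p = 0.042). Of 25 interferon response genes 3 fell and 1 rose in EFAT, 19 fell in SFAT, and Oasl2 passed (1.47 ± 0.43, adjusted p = 0.042). These shares, 1 of 23 and 1 of 25, are near the 4.38% of all genes tested that passed. Cx3cr1 passed in 6 and Oasl2 in 5 of the 16 fits that leave out 1 library. Lrrn4, a mesothelial gene, was the 1 of 13 mesothelium genes past the test (-1.79 ± 0.42, adjusted p = 0.012).

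Sulfur amino acid and glutathione genes, the pathway that the knockout and the diet act on, had 3 depot differences past the test. Of 30 tested, 6 rose and 2 fell in EFAT, 10 rose and none fell in SFAT, and 1 had a higher and 2 a lower response in EFAT. Over all genes tested, 13.5% rose and 17.3% fell in EFAT, and 10.4% rose and 12.7% fell in SFAT. For the difference 4.38% of all genes tested passed, 1.04% as higher and 3.35% as lower in EFAT. Ggt5, a gamma-glutamyl transferase that acts on leukotrienes and glutathione, rose in EFAT (0.55 ± 0.15), with a difference of 0.82 ± 0.22 (adjusted p = 0.025). Chac2, which degrades glutathione, fell in EFAT (-0.76 ± 0.19), with a difference of -0.91 ± 0.27 (adjusted p = 0.044). Ahcyl1, a relative of the enzyme that hydrolyses S-adenosylhomocysteine, rose in both depots, by 0.36 ± 0.11 in EFAT and 0.90 ± 0.11 in SFAT, with a difference of -0.54 ± 0.15 (adjusted p = 0.035). Of 25 genes listed as targets of NRF2, the factor of the oxidant response, 2 had a lower response in EFAT. They were Pgd and Taldo1, both enzymes of the pentose phosphate pathway that also supplies lipogenesis, with differences of -1.60 ± 0.44 and -1.31 ± 0.36 (adjusted p = 0.031 and 0.028). Each of these 5 calls ended without EFAT control library 12 or 14, SFAT control library 13 or 15, or SFAT CysF library 16. Of the 16 fits that leave out 1 library, Ggt5 passed in 10, Chac2 in 8, and Ahcyl1, Pgd and Taldo1 in 7 each.

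Several other lists had no gene past the test for the difference. Of 20 glucocorticoid and fasting genes, 12 rose in EFAT and 11 in SFAT and none fell (median difference 0.03). Of 24 cholesterol synthesis genes, 19 fell in EFAT, against 17.3% of all genes tested, and 3 fell in SFAT, which is near the 12.7% of all genes tested. None of the differences passed (median -0.78). Of 24 proliferation genes, 11 fell in each depot. Of 14 acyl-CoA thioesterases, 5 rose and 2 fell in EFAT and 9 rose in SFAT. That no gene of these 4 lists passed does not show that the depots responded alike. The same holds for the 20 skeletal muscle, 23 endothelial and 12 epididymis and epithelium genes tested.

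The genes with a depot difference also differed in readouts that the contrast did not use. In BAT of Cth-/- mice, 21.5% of the 614 genes with a lower response in EFAT rose on CysF, against 5.71% of all genes tested, and 3.09% fell, against 9.17%. Of the 190 with a higher response in EFAT, 33.2% fell in BAT and 1.58% rose. Between BAT and SFAT of Cth+/+ mice on CTRL, 72.3% of the 614 genes were higher in BAT, against 25.9% of all genes tested, and 72.6% of the 190 were lower in BAT, against 27.1%. In the other direction, 11.9% of the 614 were lower in BAT and 5.26% of the 190 were higher. These libraries are other than the 16 of the contrast, and all comparisons were fitted together. The BAT libraries of Cth-/- mice carry the same numbers as those 16. The labels do not say whether same-numbered libraries come from the same mouse, so the BAT shares are a description and not independent support.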

How the data were processed

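Poly(A) RNA of 48 fat libraries was sequenced, and the analysis used the deposited table of RSEM expected counts per gene (47729 genes, not normalized). Per the submitters' processing notes, the authors' tools included FastQC, STAR, Picard and RSEM with mm10. Their versions, the annotation and the strand setting were not stated there or in the labels, so reads of overlapping or antisense genes, and of near-identical copies such as that of Cycs, may be split or shared. Expected counts were rounded to whole numbers. Library totals were 16.2 M to 46.0 M, and CPM values used TMM-scaled totals. Genes were kept by filterByExpr (minimum count 10, minimum total 15), leaving 18348. The edgeR 4.0.16 quasi-likelihood test (two-sided, R 4.3.3) was fitted to 48 libraries in 12 groups, with Benjamini-Hochberg adjustment over all genes tested and a threshold of 0.05. SE is the log2 fold change divided by the square root of F.

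Named genes were a fixed set (Cth, Ucp1, Dio2, Cidea, Ppargc1a, Lep, Adipoq, Dgat2), the 10 largest differences in each direction among genes past the test at a mean of at least 5 CPM, up to 6 opposite movers in each direction, and up to 4 members of each list at a mean of at least 1 CPM. Members, lists and tests were chosen with earlier results of these data known. Promoters came from RefSeq (GRCm38.p6) and gene positions from GENCODE (GRCm38), with 18264 genes matched. Alternatives were other scaling, no count filter, robust dispersion, DESeq2 1.42.0, smaller fits, the replicate number, library set, and libraries left out. Those leaving out pairs of libraries or adding a muscle score were chosen after seeing the data. Figures used matplotlib 3.10.9. Depth limits low genes: values under 1 CPM rest on few reads.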

Additional observations from a re-analysis of the deposited data

Results flagged for a closer look

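The depot difference in Cth-/- mice passed for 804 genes, and the difference of that depot difference between Cth-/- and Cth+/+ mice passed for 632, both by the edgeR quasi-likelihood test at an adjusted p under 0.05.

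Among 372 groups of 4 libraries of the named genes, 21 held 1 library with a gap to its nearest neighbour above Dixon's 95% critical value, and chance alone gives about 1 in 20. In EFAT on CysF, library 16 stood apart for Igsf10 (19.4 CPM, nearest 14.0), Zim1 (47.1, nearest 93.1), Clstn3 (4.75, nearest 2.28), Acly (353, nearest 151), Retn (534, nearest 319) and Psph (4.89, nearest 2.84). In the same group library 17 stood apart for Ucp1 (1.09 CPM, nearest 0.171) and G0s2 (71.8, nearest 45.3), and library 20 for Lep (31.3, nearest 139). In EFAT on CTRL, library 15 held 2.84 CPM of Ucp1 (nearest 0.173).

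In SFAT on CysF, library 20 stood apart for Dio2 (149 CPM, nearest 31.1), Cebpa (295, nearest 599), Slc1a5 (804, nearest 1410) and Edem1 (48.6, nearest 74.8), and library 18 for Zim1 (45.4, nearest 17.3) and Dpp4 (56.5, nearest 38.4). In SFAT on CTRL, library 14 stood apart for Cd79a (17.0 CPM, nearest 1.06), Pax5 (17.2, nearest 1.36) and Ighd (39.6, nearest 4.21), and library 13 for Hspa5 (347, nearest 269) and Rnase10 (0.749, nearest 0.369).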

How the results depend on the processing

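The 804 genes of the depot difference in Cth-/- mice became 722 with RLE scaling, 528 with no count filter, 1308 with DESeq2 (425 higher and 883 lower in EFAT), 348 in 32 white fat libraries, 139 in the 16 libraries alone (64 higher, 75 lower), 509 with library set as a term, 42 in set A, 3 in set B, 377 without EFAT 16 and 20, 182 without EFAT 17 and 20, and 209 to 1740 with 1 library left out. The 5660 genes that responded in EFAT became 3757, 1173, 718 and 2501 in a smaller fit, set A, set B and without EFAT 17 and 20, and 3729 (without control library 12) to 6438 with 1 left out. The 4240 in SFAT became 1978 in set B and 3044 to 4029. In Cth+/+ mice DESeq2 gave 11, and 0 to 5 passed with 1 left out. The genotype difference (632) became 300 with no filter, 1354 with DESeq2, 308 in white fat, 155 with the set term, 1 in set A, 1038 without SFAT 14 and 20, 178 without EFAT 17 and 20, 400 with the muscle score, and 198 to 1865. With the replicate block, which 8 correlations of -0.06 to 0.66 between same-numbered libraries (7 over 0.1) do not establish as a pairing, the counts were 2234 (795 of the 804), 2 in Cth+/+ and 1876, and Cd79a, Pax5 and Ighd did not pass (adjusted p = 0.11, 0.074 and 0.063). Respiratory chain genes (45) became 4 in the smaller fit, 21 in white fat, 0 in set A, 0 in set B, 10 without EFAT 17 and 20, and 15 to 53. Triglyceride assembly (8) became 3, 5, 1, 0 and 4 in the same fits, 5 with the set term, 5 without EFAT 16 and 20, and 4 to 10. Signs turned for Rnase10 (-0.02 without EFAT 16 and 20), Ppargc1a (-0.17 with the set term, -0.82 in set B, -0.31 without EFAT 17 and 20, and, with 1 left out, -0.04 to 0.55), and in set B for Lep (2.38), Adipoq (0.01), Fam73b (0.06), Acly (0.43), Fasn (0.01), Thrsp (0.47), Acaca (0.11), Cebpa (0.40), Ighm (0.53) and Edem1 (0.24). The causes were not tested. Of 84 named genes past the test, 29 passed in each fit that left out 1 library. Depth limits genes under 1 CPM.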

Other observations

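Genes of growth hormone signalling also differed between the depots: 4 of 16 had a lower response in EFAT and none a higher one. Over all genes tested, 3.35% had a lower response in EFAT and 1.04% a higher one. Igfbp3, a carrier of insulin-like growth factors, was at 63.5, 74.1, 78.7 and 89.0 CPM in EFAT on CysF, against 31.9, 20.5, 29.9 and 20.6 CPM in EFAT on CTRL, and at 140, 144, 193 and 195 CPM in SFAT on CysF, against 32.7, 20.3, 31.7 and 23.9 CPM in SFAT on CTRL. It rose in both depots without overlap of the diet groups, and more in SFAT (difference -1.06 ± 0.29, adjusted p = 0.028). Prlr, the prolactin receptor, rose in SFAT (1.99 ± 0.26), with a difference of -1.45 ± 0.35 (adjusted p = 0.014). Ghr, the growth hormone receptor, fell in EFAT (-0.47 ± 0.16), with a difference of -0.89 ± 0.23 (adjusted p = 0.021). Cdkn2c, a cell cycle inhibitor, fell by 2.13 ± 0.27 in EFAT, with a difference of -1.76 ± 0.37 (adjusted p = 0.0064). With 1 library left out, Cdkn2c passed in all 16 fits, Prlr in 15, Igfbp3 in 12 and Ghr in 11.

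Of 39 ATF4 targets, genes that the amino acid stress response can raise, 4 had a lower response in EFAT and none a higher one. They were Psph, the last enzyme of serine synthesis (-1.57 ± 0.40, adjusted p = 0.020), Slc1a5, a glutamine transporter (-1.10 ± 0.29, adjusted p = 0.024), Gars, the glycyl-tRNA synthetase (-0.77 ± 0.22, adjusted p = 0.036), and Vldlr, a lipoprotein receptor (-0.76 ± 0.16, adjusted p = 0.0064), and each of the 4 fell in EFAT and did not pass in SFAT. Of the 16 fits that leave out 1 library, Vldlr passed in each, Psph in 11, Slc1a5 in 9 and Gars in 7. The 39 targets had a median difference of -0.09, with 22 negative and 17 positive. For scale, 3.35% of all genes tested had a lower response in EFAT and 1.04% a higher one. Of 20 endoplasmic reticulum chaperone and folding genes, Hspa5 (-0.54 ± 0.16, adjusted p = 0.044) and Edem1 (-0.71 ± 0.21, adjusted p = 0.047) had a lower response in EFAT. Among 18 imprinted growth genes, Grb10, an inhibitor of growth factor signalling, rose in EFAT (0.82 ± 0.14) with a difference of 0.69 ± 0.20 (adjusted p = 0.038), and Gnas, which encodes a G protein subunit, rose in SFAT (0.37 ± 0.13) with a difference of -0.66 ± 0.18 (adjusted p = 0.027). In the same fits Gnas passed in 8, Grb10 in 7, Hspa5 in 6 and Edem1 in 5.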
